A study of Mus musculus with 14 samples.

Results

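Levels of 9 interferon-stimulated genes were examined in mouse hind limb skeletal muscle. They are Stat2, Irf7, Irf1, Ifit1, Ifit2, Ifit3, Isg15, Rsad2 and Bst2, taken by their gene symbols from the 49585 genes of the deposited tables, where each has 1 row. RNA-seq covered 12 libraries in 4 groups of 3: uninjured wild type (WT), uninjured Myf6 knockout (KO), injured WT and injured KO. Myf6, also called MRF4, encodes a muscle-specific transcription factor of the family that includes Myod1 and Myog. The series concerns the part of Myf6 in keeping the stem cell pool of adult muscle through secreted proteins. The labels name the genotypes only as WT and Myf6 KO. The sources used here do not give the allele, strain, age or sex of the mice, nor how and when the muscle was injured. Each library carries an animal number and a letter. The 3 WT numbers and the 3 KO numbers each occur with L in the uninjured and with R in the injured group, so the uninjured and injured libraries of 1 number are read as coming from the same animal. WT and KO numbers differ, so the genotype cannot be told apart from a difference between litters or batches. A list of Flag-Myf6 binding peaks in primary myotubes, from 1 chromatin library with 1 control, was used beside the RNA data.

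Interferons are secreted proteins that cells release on sensing foreign or misplaced nucleic acid. Type I interferon binds the receptor Ifnar1-Ifnar2, whose kinases Jak1 and Tyk2 phosphorylate Stat2. Stat2 and Irf9 act in the complex ISGF3, which binds the interferon-stimulated response element in the promoters of its target genes. Gamma interferon acts mainly through the gamma-activated site. Most cells also keep a low level of these transcripts without infection. Among the 9 genes, Stat2 is a subunit of ISGF3, and Irf7 and Irf1 are transcription factors that are themselves induced and that amplify the response. The others are antiviral effectors. Ifit1, Ifit2 and Ifit3 are tetratricopeptide proteins that bind viral RNA or each other, Isg15 is a ubiquitin-like protein that is conjugated to other proteins, Rsad2 (viperin) makes a chain-terminating nucleotide, and Bst2 (tetherin) holds budding virus at the cell surface.

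Promoters are shown for the 6 of 9 genes that carry the core of the interferon-stimulated response element in the bases searched. The 250 bases before the annotated start site are given 5′ to 3′ on the strand of the gene, from RefSeq with assembly GRCm38.p6, for the 6 genes in which the core of the interferon-stimulated response element, GAAA followed by any 2 bases and a further GAAA, was found on either strand. Capitals mark the matches. The annotated start used for Ifit3, 34583529, lies inside the gene span, which begins at 34583119. The Ifit3 window is therefore within the gene and not before its outer end. The windows are chr10:128270248-128270497 (plus strand) for Stat2, chr19:34583279-34583528 (plus) for Ifit3, chr19:34640639-34640888 (plus) for Ifit1, chr4:156200819-156201068 (minus) for Isg15, chr12:26456453-26456702 (minus) for Rsad2 and chr8:71537473-71537722 (minus) for Bst2.
Stat2: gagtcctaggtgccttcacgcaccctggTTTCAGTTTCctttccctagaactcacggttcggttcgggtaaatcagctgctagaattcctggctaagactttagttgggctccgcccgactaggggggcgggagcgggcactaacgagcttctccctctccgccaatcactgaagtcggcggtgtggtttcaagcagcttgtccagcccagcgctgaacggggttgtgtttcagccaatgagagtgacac
Ifit3: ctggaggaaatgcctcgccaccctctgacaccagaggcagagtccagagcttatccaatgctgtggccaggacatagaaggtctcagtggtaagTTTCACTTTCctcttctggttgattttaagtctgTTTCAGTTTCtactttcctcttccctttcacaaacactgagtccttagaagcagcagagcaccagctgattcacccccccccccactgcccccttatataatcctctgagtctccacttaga
Ifit1: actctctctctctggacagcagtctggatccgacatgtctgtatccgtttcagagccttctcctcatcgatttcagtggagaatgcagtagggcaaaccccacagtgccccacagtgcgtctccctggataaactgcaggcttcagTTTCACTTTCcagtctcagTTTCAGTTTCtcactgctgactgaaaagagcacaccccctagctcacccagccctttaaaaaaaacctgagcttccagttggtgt
Isg15: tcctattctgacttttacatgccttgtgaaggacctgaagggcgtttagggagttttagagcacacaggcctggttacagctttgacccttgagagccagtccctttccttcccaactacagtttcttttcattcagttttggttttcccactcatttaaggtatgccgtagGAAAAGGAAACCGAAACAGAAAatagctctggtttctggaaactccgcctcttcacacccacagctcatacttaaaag
Rsad2: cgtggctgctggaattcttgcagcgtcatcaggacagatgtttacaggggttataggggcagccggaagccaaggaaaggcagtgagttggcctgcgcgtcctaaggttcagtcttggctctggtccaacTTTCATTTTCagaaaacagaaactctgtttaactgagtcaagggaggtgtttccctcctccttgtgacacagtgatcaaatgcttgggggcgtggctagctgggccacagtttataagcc
Bst2: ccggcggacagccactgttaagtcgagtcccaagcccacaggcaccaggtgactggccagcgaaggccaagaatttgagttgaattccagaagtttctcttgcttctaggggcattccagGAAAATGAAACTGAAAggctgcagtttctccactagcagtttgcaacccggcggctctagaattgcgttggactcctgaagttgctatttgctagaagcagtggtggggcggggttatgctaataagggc
The element core was present in 6 of 9 genes, against 3.46% of the 27025 genes with a window and 2.98% of all 32851 windows of this length. Stat2 has a single match, at -222 to -213 counted from the start site, and Rsad2 a single match at -120 to -111. Ifit3 has matches at -156 to -147 and -122 to -113, and Ifit1 at -104 to -95 and -85 to -76. In Isg15, 3 matches overlap one another between -78 and -57, and in Bst2, 2 matches overlap between -130 and -115. The 11 windows of the 9 genes include 2 starts each for Ifit2 and Irf1. The letters of the core are not in the windows of Ifit2, Irf1 or Irf7. The starts used for Ifit2 (34550694 and 34551088) lie inside its span, which begins at 34550550. That of Irf7 (141266424, minus strand) lies inside a span that ends at 141266499. The bases before the outer ends of these genes were thus only partly searched. The gamma-activated site, searched as TTCNNNGAA on both strands, was found in Irf1, Ifit2 and Bst2, against 8.13% of genes, and in Bst2 it overlaps the response element. The E-box CANNTG, the short motif of myogenic factors such as Myf6, was found in 8 of the 9 genes, against 69.3% of all genes. These matches describe the letters and are not evidence of binding.

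**Figure D1:**
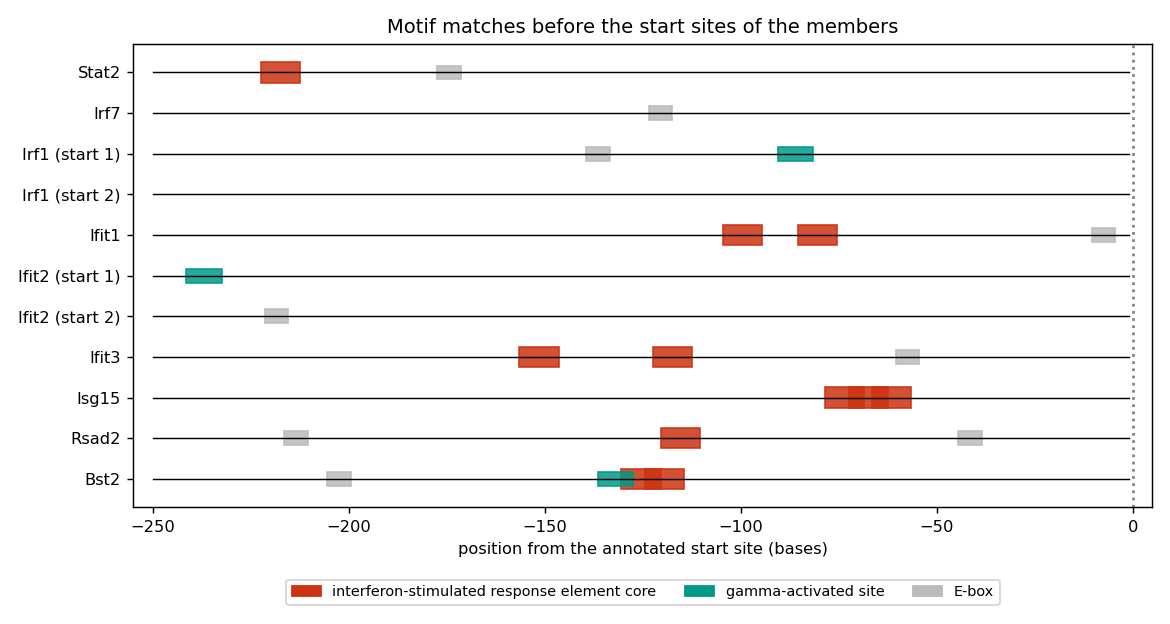
Motif matches in the 250 bases before each start site used for the 9 genes, with 1 row per window. The horizontal axis gives the position from the start site in bases. Boxes mark the interferon-stimulated response element core (red, 6 genes), the gamma-activated site (green, 3 genes) and the E-box (grey, 8 genes).

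Depth and composition differed between the libraries. Recovered totals ran from 1880087 reads in uninjured WT replicate 2 to 49392472, and reads on mitochondrially encoded genes made up 3.63% to 23.2%. In uninjured WT replicate 2 the 9 genes had 3 to 41 reads each, against 17 or more in every other library. The shallowest value there, 3 reads of Isg15, is 1.60 RPM (reads scaled to a library total of 1000000) with an exact Poisson 95% interval of 0.329 to 4.66, which covers counting error only. Injured KO replicate 2 stood apart in its group, with 23.2% mitochondrial reads against 4.95% and 4.30% in the other two. In uninjured muscle this share was 18.1%, 22.3% and 13.8% in WT and 6.76%, 15.3% and 3.63% in KO, so it was mostly lower in KO, with overlap. The summed level of 8 muscle fibre markers was 110090 to 170150 RPM in the 12 libraries, so the defining genes of the labelled tissue were present in each. Myf6 was 60.9 ± 45.0 RPM (SD, n = 3) in uninjured WT and 2.53 ± 0.832 in uninjured KO muscle, and 80.4 ± 37.0 and 3.07 ± 0.226 in the injured groups, so the KO labels match the targeted gene. Levels are in RPM, which does not correct for transcript length, so they are compared between libraries and not between genes. All 9 genes passed the filter on low values in every comparison.

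In uninjured muscle the transcription factor Stat2 and the effectors Ifit3, Rsad2, Bst2 and Ifit2 were lower in every KO library than in every WT library, yet no member passed the test adjusted over all genes. The mean level of Ifit3 was 6.80 times as high in WT as in KO, that of Stat2 3.37 times, Rsad2 2.70 times, Bst2 2.20 times and Ifit2 1.73 times. Ifit1, Irf7, Isg15 and Irf1 overlapped between the genotypes. So did Ifit3 when summed with its close paralog Ifit3b, as given further below. The test was limma on log2(RPM + 1), with Benjamini-Hochberg adjustment over all 12460 genes tested.

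**Figure D2:**
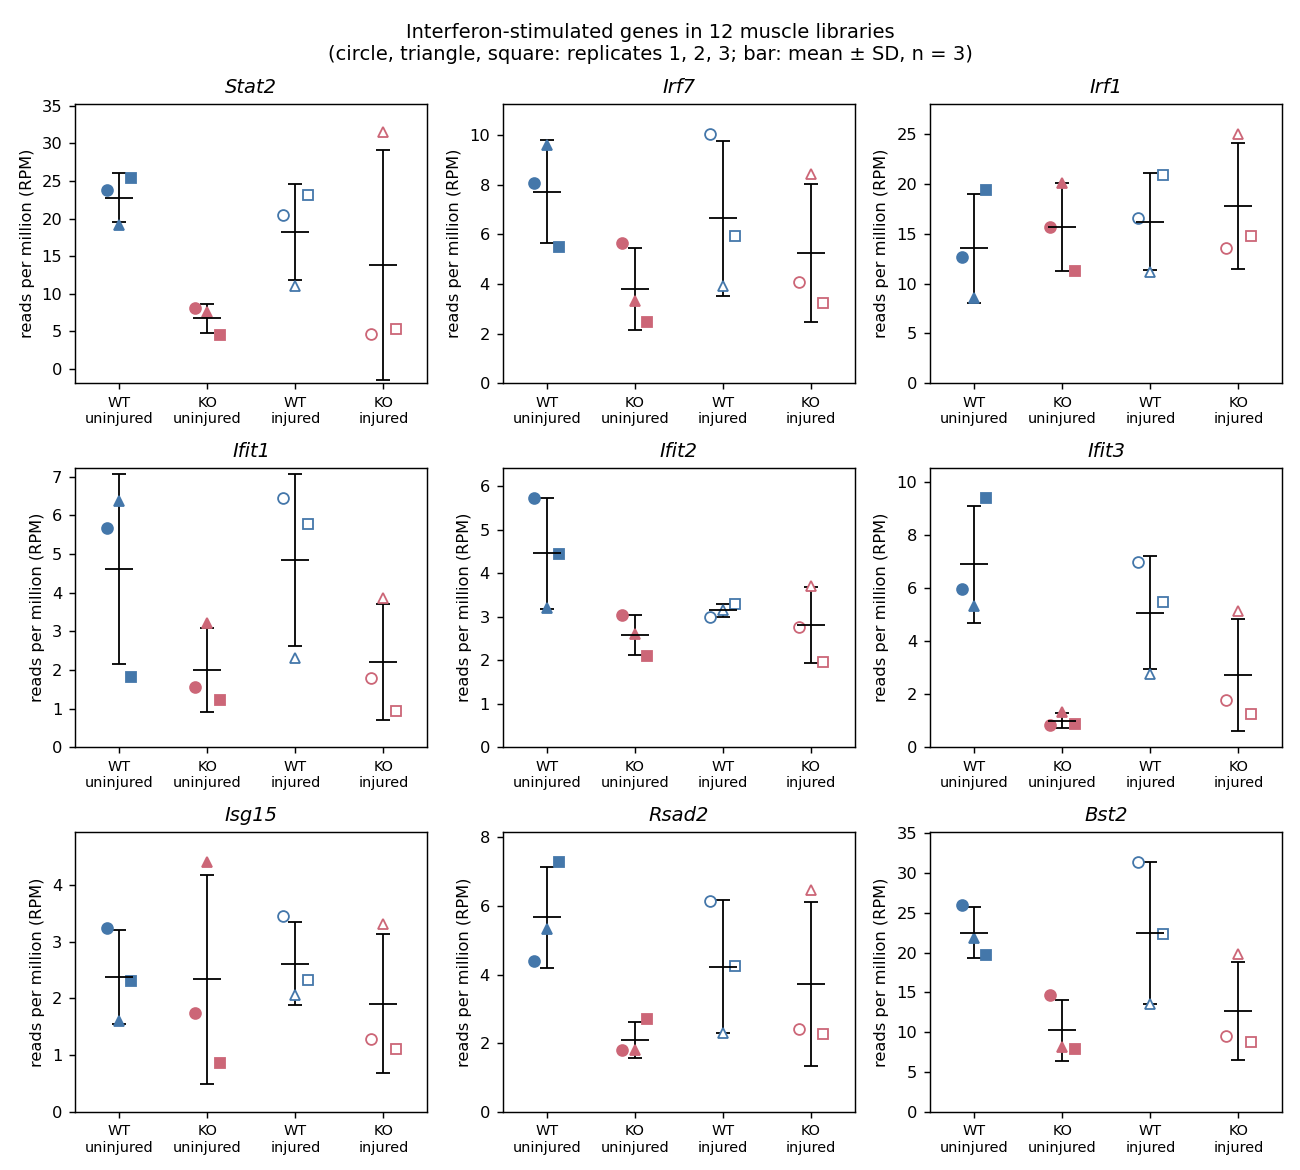
Level of each of the 9 genes in RPM (vertical axis, a separate scale for each gene) in the 12 libraries by group. Symbols mark replicates 1 (circle), 2 (triangle) and 3 (square), filled for uninjured and open for injured muscle, and bars give the mean ± SD (n = 3). Uninjured KO values of Ifit3 lie between 0.837 and 1.34 RPM, below the lowest WT value of 5.32, and injured KO replicate 2 is the highest of its group for every gene.

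Stat2 (ENSMUSG00000040033.15, chr10:128270498-128292853) measured 23.8, 19.1 and 25.4 RPM in the uninjured WT libraries 1 to 3 and 8.10, 7.64 and 4.51 RPM in the KO libraries. The KO libraries were all far below the WT libraries. The limma estimate, KO minus WT on the log2(RPM + 1) scale, was -1.64 (SE 0.33, limma adjusted p = 0.0820). Stat2 lies on the chromosome of Myf6, with 20.8 Mb between the genes. Irf9, which gives ISGF3 its contact with DNA, measured 14.5, 8.51 and 7.08 RPM in WT and 4.72, 6.14 and 5.31 in KO, with no overlap and an estimate of -0.74 (SE 0.37, limma adjusted p = 0.400).

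The induced regulators Irf7 and Irf1 differed from each other in direction. Irf7 (ENSMUSG00000025498.15, chr7:141263183-141266499), which drives a later wave of type I interferon, measured 8.08, 9.57 and 5.50 RPM in uninjured WT and 5.63, 3.31 and 2.45 in KO. KO replicate 1 was just above WT replicate 3, and the other KO values were below all WT values. The estimate was -0.89 (SE 0.39, limma adjusted p = 0.352). Irf1 (ENSMUSG00000018899.16, chr11:53770014-53778374), which is induced by gamma interferon, measured 12.6, 8.51 and 19.4 RPM in WT and 15.7, 20.1 and 11.2 in KO. Its groups interleaved, and it was the only member with a positive estimate, 0.23 (SE 0.38, limma adjusted p = 0.829), which turned negative without WT replicate 2.

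Ifit3 (ENSMUSG00000074896.3, chr19:34583119-34588982), which binds and stabilises Ifit1, measured 5.95, 5.32 and 9.39 RPM in uninjured WT and 0.837, 1.34 and 0.865 RPM in KO. The KO values lay close together and far below all 3 WT values, and the estimate was -1.94 (SE 0.37, limma adjusted p = 0.0694). Ifit1 (ENSMUSG00000034459.8, chr19:34640889-34650009), which binds viral RNA that lacks the host cap structure, measured 5.66, 6.38 and 1.81 RPM in WT and 1.56, 3.23 and 1.22 in KO. WT replicate 3 lay within the KO range, and the estimate was -0.84 (SE 0.48, limma adjusted p = 0.467). Ifit2 (ENSMUSG00000045932.12, chr19:34550550-34576534), a binding partner of both, measured 5.73, 3.19 and 4.45 RPM in WT and 3.04, 2.60 and 2.104 in KO. The groups nearly touched, and the estimate was -0.59 (SE 0.36, limma adjusted p = 0.503).

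Of the effectors outside the Ifit family, Rsad2 (ENSMUSG00000020641.15, chr12:26442743-26456452) measured 4.41, 5.32 and 7.28 RPM in WT and 1.79, 1.81 and 2.71 in KO. The groups did not overlap, and the estimate was -1.09 (SE 0.36, limma adjusted p = 0.221). Bst2 (ENSMUSG00000046718.8, chr8:71534255-71537472) measured 25.9, 21.8 and 19.6 RPM in WT and 14.6, 8.11 and 7.93 in KO, again without overlap, with an estimate of -1.11 (SE 0.34, limma adjusted p = 0.2013). Isg15 (ENSMUSG00000035692.6, chr4:156199424-156200818) measured 3.25, 1.60 and 2.31 RPM in WT and 1.75, 4.41 and 0.865 in KO, so that KO held both its highest and its lowest value. Its estimate of -0.13 (SE 0.47, limma adjusted p = 0.931) was positive under TMM and upper quartile scaling and with the 2 count tests.

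Counted over the group, 0 of 9 members passed in either direction with limma, against 0.152% of all genes tested that were called lower and 0.128% called higher. At an unadjusted p under 0.05, 4 members were lower (Ifit3, Stat2, Bst2 and Rsad2) and 0 higher, where 10.7% of all genes were lower and 3.53% higher. The KO and WT libraries did not overlap for 5 members, all lower, where 15.5% of all genes were lower without overlap and 6.2% higher. An exact two-sided permutation test of 3 against 3 libraries gives p = 0.1 for each of these 5, the smallest value that the design allows. The estimate was lower for 8 members, against 63.2% of all genes. The members' median was -0.89, beside -0.18 for all genes tested. Under upper quartile and TMM scaling 7 members were lower, where Isg15 turned. The 63.2% does not apply there, as the median of all genes was 0.04 and 0.02. The median of all genes moved to 0.04 with upper quartile scaling and to -0.32 with scaling to reads outside mitochondrial genes, and the members' median then was -0.66 and -1.02. Of all genes, 35 were called (19 lower), and 156 (57 lower), 107 (46 lower) and 210 (179 lower) with upper quartile, TMM and non-mitochondrial scaling.

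The calls of Ifit3 and Stat2 depended on the model, the scaling and the adjustment. DESeq2 on the recovered reads called both lower, with changes of -2.53 (adjusted p = 0.00163) and -1.48 (adjusted p = 0.0212), where it called 2.09% of genes lower. Scaling to reads outside mitochondrial genes also called both with limma, at adjusted p = 0.0336 and 0.0374, where 1.44% of genes were called lower. A limma fit on all 12 libraries called Ifit3 alone (adjusted p = 0.0406, with 0.9% of genes called lower). The edgeR quasi-likelihood test called 0 members, where it called 55 of 12460 genes (25 lower). In the authors' deposited table the q-value was 0.00564 for Ifit3 and 0.0732 for Stat2. The other 7 members had q-values of 0.613 to 0.986, where 0.7% of genes were lower with a q-value under 0.05. The authors' changes, of WT over KO, were 2.53 (SE 0.587) for Ifit3 and 1.48 (SE 0.43) for Stat2. These equal the DESeq2 changes above in size, so the deposited values and the DESeq2 run are not separate evidence and differ in the adjusted values.

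**Figure D3:**
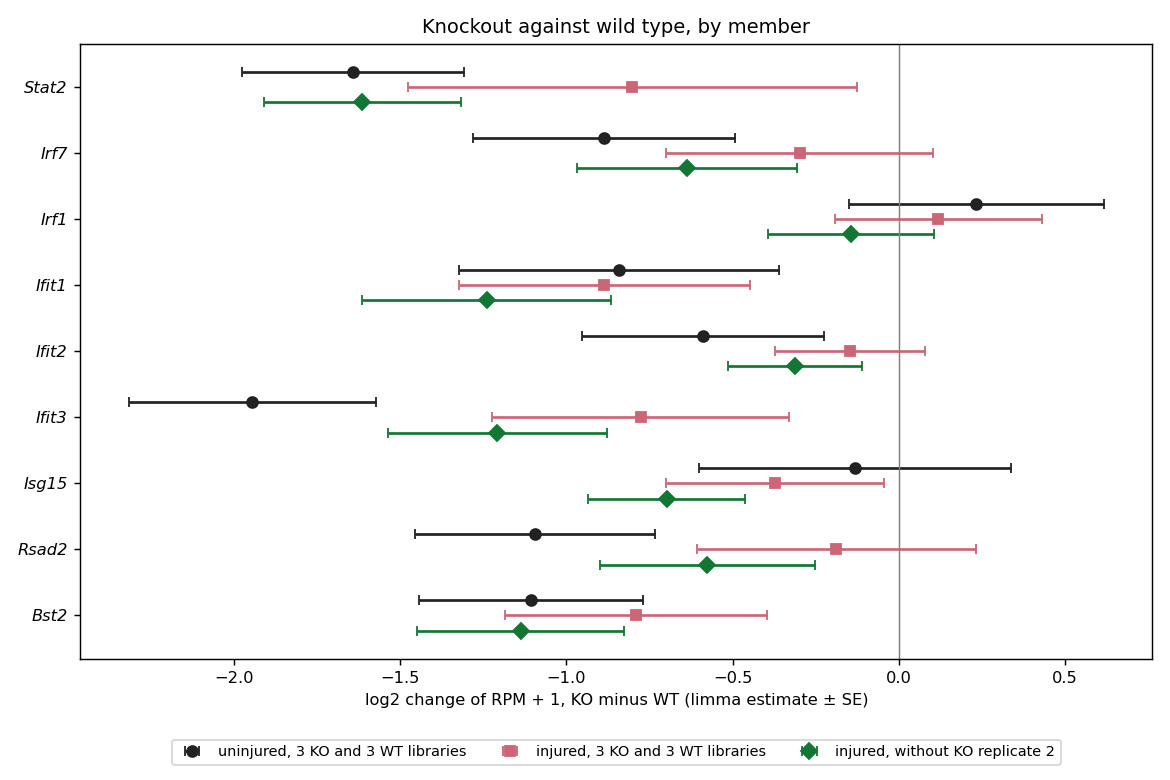
KO minus WT change of each gene on the log2(RPM + 1) scale (horizontal axis, limma estimate ± SE) in uninjured muscle (black circles), injured muscle (red squares) and injured muscle without KO replicate 2 (green diamonds). Stat2 is at -1.64 in uninjured muscle, -0.80 in injured muscle, and -1.61 in injured muscle without that library, while leaving out KO replicate 1 or 3 (not drawn) gives -0.36 or -0.43.

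The deposited value of Ifit3 has to be read with that of its neighbour. Ifit3b (chr19:34607530-34613403) is a close paralog of Ifit3 (chr19:34583119-34588982), and how reads matching both were assigned is not given in the sources used here, so the split between them is uncertain. Ifit3b measured 1.19, 1.06 and 2.04 RPM in uninjured WT, and 2.05, 0.315 and 7.57 RPM in uninjured KO, where replicate 2 rests on 4 reads. Ifit3 made up 83.3%, 83.3% and 82.1% of the summed level of Ifit3 and Ifit3b in uninjured WT and 28.9%, 81.0% and 10.2% in uninjured KO. The sum was 7.14, 6.38 and 11.4 RPM in WT and 2.89, 1.65 and 8.44 RPM in KO, so the genotypes overlapped. With the 2 rows summed, the uninjured estimate for Ifit3 was -0.98 (SE 0.50, limma adjusted p = 0.415) in place of -1.94. The members lower at an unadjusted limma p under 0.05 were then 3 in place of 4. Ifit3 also left the members whose KO and WT libraries did not overlap. In injured muscle Ifit3 made up 76.9%, 50% and 57.2% of the sum in WT and 29.3%, 60% and 16.6% in KO, and the estimate for the sum was -0.08 (SE 0.25, limma adjusted p = 0.939). In both KO groups replicate 2, from 1 animal, had the largest share of Ifit3. The summing was chosen after seeing the data.

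**Figure D4:**
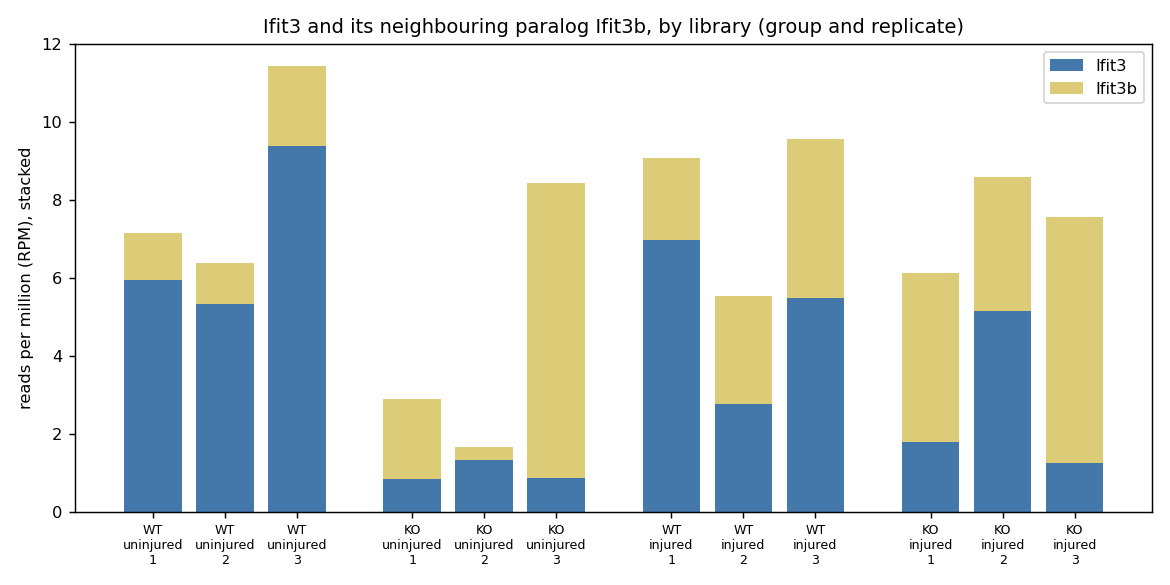
Levels of Ifit3 (blue) and Ifit3b (yellow) in RPM, stacked, in each of the 12 libraries by group and replicate. Ifit3 makes up 82.1% to 83.3% of the stack in uninjured WT and 10.2% to 81.0% in uninjured KO, and the stacks of the genotypes overlap in height.

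In injured muscle 8 of 9 members again had a lower estimate in KO, but the groups overlapped for all 9, where 8.63% of all genes were lower and 8.29% higher without overlap, and no member passed. Stat2 measured 20.4, 11.04 and 23.1 RPM in injured WT and 4.71, 31.5 and 5.32 in injured KO. KO replicate 2 held the highest value of all 6 libraries and the other KO libraries the lowest 2, and the estimate was -0.80 (SE 0.68, limma adjusted p = 0.723). Ifit3 measured 6.98, 2.77 and 5.47 RPM in WT and 1.79, 5.15 and 1.26 in KO (estimate -0.78, SE 0.45, limma adjusted p = 0.591). Bst2 measured 31.4, 13.6 and 22.4 RPM in WT and 9.50, 19.8 and 8.73 in KO (estimate -0.79, SE 0.40, limma adjusted p = 0.553). These genes share 1 pattern, in which KO replicates 1 and 3 were below all WT libraries and KO replicate 2 was within or above the WT range.

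The same order held for Ifit1 and Isg15. Ifit1 measured 6.45, 2.32 and 5.78 RPM in WT and 1.79, 3.87 and 0.952 in KO, the lowest estimate of the 9 at -0.89 (SE 0.44, limma adjusted p = 0.549). Isg15 measured 3.45, 2.06 and 2.33 RPM in WT and 1.28, 3.32 and 1.11 in KO (estimate -0.37, SE 0.33, limma adjusted p = 0.735). Ifit2 measured 3.001, 3.14 and 3.29 RPM in WT, the narrowest spread of any member in a group, and 2.76, 3.71 and 1.96 in KO (estimate -0.15, SE 0.23, limma adjusted p = 0.862). In the other 3 members the order was not complete. Irf7 measured 10.1, 3.93 and 5.93 RPM in WT and 4.10, 8.41 and 3.24 in KO (estimate -0.30, limma adjusted p = 0.839). Rsad2 measured 6.15, 2.28 and 4.25 RPM in WT and 2.41, 6.47 and 2.27 in KO (estimate -0.19, limma adjusted p = 0.912). Irf1 measured 16.6, 11.2 and 20.9 RPM in WT and 13.5, 25.1 and 14.8 in KO (estimate 0.12, limma adjusted p = 0.930).

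Injured KO replicate 2 was the highest of its 3 libraries for 9 of 9 members, as for 45.6% of all genes tested, and replicates 1 and 3 were both below every injured WT library for 6 of 9, as for 26.3% of genes. With all libraries, 0 members had an unadjusted p under 0.05 in limma and 0 were called by limma, DESeq2 or edgeR. Of all genes, 5.26% were lower and 5.06% higher at that level in limma, and 0.095% and 0.174% were called. The members' median was -0.37, beside 0.01 for all 12625 genes tested, and the estimate was lower for 48% of genes. Without injured KO replicate 2, 3 of 9 members passed as lower in KO. They were Stat2 at -1.61 (SE 0.30, limma adjusted p = 0.0159), Ifit3 at -1.21 (SE 0.33, limma adjusted p = 0.0435) and Bst2 at -1.14 (SE 0.31, limma adjusted p = 0.0438). That fit called 9.54% of all genes lower and 9.49% higher, 2343 in all, so calls were frequent throughout the table. Leaving out any other injured library left 0 members called. Without KO replicate 1 or 3 the estimate was -0.36 or -0.43 for Stat2 and -0.64 or -0.48 for Ifit3. The members' median was -0.24 or -0.18 then, against -0.70 without KO replicate 2.

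Injury made no called difference in any member. All uninjured libraries carry L and all injured ones R, so injury cannot be told apart from a difference that goes with the letter. The main test did not pair the libraries of an animal. In WT, 6 of 9 members had a lower estimate in the injured libraries, against 37.6% of all genes, and the members' median was -0.24, beside 0.09 for all 13337 genes tested. Ifit2 and Stat2 were lower in the injured library of all 3 WT animals, by 0.75, 0.02 and 0.34 for Ifit2 and by 0.21, 0.74 and 0.13 for Stat2 on the log2(RPM + 1) scale, as were 8.5% of all genes. No gene of the table was called in WT by limma, with 0.457% lower and 0.832% higher at an unadjusted p under 0.05 and 0 members among them, and DESeq2 and edgeR called 0. Estimates of the members in WT ran from -0.41 for Ifit3 to 0.27 for Irf1.

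In KO, 8 of 9 members had a higher estimate in the injured libraries, but 4 of them turned negative with upper quartile and TMM scaling. Of all genes 80.9% had a higher estimate. The members' median was 0.25, beside 0.29 for all genes, which moved to -0.02 with upper quartile scaling. The largest estimate was that of Ifit3, 0.76 (SE 0.41, limma adjusted p = 0.728). Ifit3 was higher in the injured library of all 3 KO animals, by 0.60, 1.39 and 0.27, as were 19.8% of all genes. KO animal 2 had the largest change in Stat2, at 1.91, against -0.67 and 0.20 in KO animals 1 and 3. In Bst2 the changes were -0.57, 1.19 and 0.12, and in Irf7 -0.38, 1.13 and 0.30. The smallest estimate in KO was that of Isg15, -0.14. Of all genes 0 were called in KO by limma, DESeq2 or edgeR, with 3.41% higher and 0.0975% lower at an unadjusted p under 0.05 in limma and 0 members among them.

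The difference of the injury response between genotypes was tested directly as an interaction, and 0 members passed. The largest estimate was again that of Ifit3, 1.17 (SE 0.57, limma adjusted p = 0.99989), followed by Rsad2 at 0.91 and Stat2 at 0.84. The members' median was 0.44, beside 0.20 for all genes. Without injured KO replicate 2 the members' median was 0.03, and the estimates were 0.74 for Ifit3, 0.52 for Rsad2 and 0.03 for Stat2. No gene of the table was called for the interaction by limma, DESeq2 or edgeR, and 1.3% were higher and 0.262% lower at an unadjusted limma p under 0.05, with 0 members among them.

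Across the 12 libraries the members moved together to different degrees. All 36 pairwise correlations of log2(RPM + 1) were positive, with a median Pearson r of 0.631 and a range from 0.0540 for Ifit1 with Irf1 to 0.925 for Bst2 with Irf7. The libraries share animals and groups, and differ in depth and mitochondrial share, so these values are a description. Stat2 followed the mean of the other 8 members most closely, with r of 0.958, then Bst2 with 0.888, Ifit3 with 0.884 and Irf7 with 0.828. Irf1 followed it least, with r of 0.257, then Isg15 with 0.630. The mean standardised level of the 9 genes, in SD units, was highest in injured KO replicate 2 (0.918), injured WT replicate 1 (0.911) and uninjured WT replicate 1 (0.853), and lowest in uninjured KO replicate 3 (-1.24) and injured KO replicate 3 (-1.05). Injured WT replicate 2, at -0.393, was the only WT library below 0. Of 13328 other genes, the 5 with levels most like this mean over the 12 libraries were Pan3 (r of 0.976), a subunit of a poly(A) nuclease, Fbxl6 (0.971), Scarf1 (0.968), a scavenger receptor, AW112010 (0.968) and Pigo (0.964). AW112010 averaged 36.1 RPM in uninjured WT and 10.4 in uninjured KO.

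No interferon gene was detected above a single read. Of 20 interferon genes in the tables, 19 had no read in any of the 12 libraries, and Ifnz had 1 read in 1 library, 0.0202 RPM. With 3 reads corresponding to 0.0607 to 1.60 RPM, lower levels were not detectable at this depth. The receptor chains were measured. Ifnar1 averaged 15.2 RPM in uninjured WT and 12.3 in uninjured KO, and Ifnar2 7.42 and 5.17, both with overlapping groups.

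Other genes of the pathway were counted over 7 lists of 137 genes in all, of which 90 were tested in uninjured muscle and 0 were called by limma. At an unadjusted p under 0.05, 22 were lower in KO and 0 higher, where 10.7% of all genes were lower and 3.53% higher. The estimate was lower for 77 of the 90, against 63.2% of all genes, with a median of -0.56 beside -0.18 for all genes. Of 40 other effectors 13 were lower at that level (median -0.77), of 12 gamma-interferon-associated GTPases 5 (median -1.05), of 13 nucleic acid sensors and adaptors 3 (median -0.64), and of 9 inhibitors 1 (median -0.21). None of 8 receptors and kinases (median -0.42) or of 8 transcription factors (median -0.27) reached it. In injured muscle, 4 of 91 genes were lower at an unadjusted p under 0.05 and 0 were called, where 5.26% of all genes were lower at that level. The median was -0.14, beside 0.01 for all genes.

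The most abundant genes of each list mostly overlapped between the genotypes. The kinase Jak1 averaged 84.3 ± 30.1 RPM in uninjured WT and 76.9 ± 35.0 in uninjured KO (SD, n = 3), and the gamma interferon receptor chain Ifngr2 67.0 ± 9.58 and 76.0 ± 35.3. Among the transcription factors, Stat3 averaged 31.0 ± 5.04 and 29.9 ± 18.1 RPM and Irf3 24.8 ± 4.69 and 24.3 ± 7.36. Among the sensor pathway genes, Mavs averaged 18.6 ± 6.87 and 23.7 ± 16.4 RPM. These 5 genes overlapped between the genotypes. The kinase Tbk1, which phosphorylates Irf3, was 14.1 ± 1.84 and 8.90 ± 1.71 RPM without overlap, with an estimate of -0.62 (SE 0.31, limma adjusted p = 0.409).

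Of the abundant effectors, Ifi27 was 53.8 ± 5.58 RPM in uninjured WT and 65.1 ± 6.17 in KO, with no overlap and a positive estimate of 0.27 (SE 0.25, limma adjusted p = 0.664). The membrane protein Ifitm3, which blocks viral entry, averaged 58.7 ± 15.6 and 52.8 ± 21.9 RPM. The GTPase Igtp was 18.7 ± 1.11 and 7.99 ± 3.17 RPM in uninjured muscle, with an estimate of -1.20 (SE 0.36, limma adjusted p = 0.196), and 18.2 ± 3.42 and 11.1 ± 1.07 RPM in injured muscle, with an estimate of -0.65 (SE 0.20, limma adjusted p = 0.343). Igtp did not overlap in either comparison. Its relative Irgm1 averaged 17.7 ± 4.62 and 15.2 ± 2.99 RPM in uninjured muscle and overlapped. Of the inhibitors, the nucleotide hydrolase Samhd1 averaged 21.3 ± 5.51 and 19.0 ± 1.81 RPM, and Irf2bp2 20.0 ± 10.3 and 14.5 ± 6.78. Irf2bp2 did not overlap in injured muscle, at 22.2 ± 0.924 and 17.9 ± 0.614 RPM (estimate -0.29, SE 0.15, limma adjusted p = 0.559). The lowest adjusted p on the lists was that of the GTPase Gbp9, named after its values were seen, at -1.82 (SE 0.32, limma adjusted p = 0.0580) in uninjured muscle. Gbp9 passed with upper quartile, TMM and non-mitochondrial scaling and with DESeq2 and edgeR, at adjusted p from 8.05e-05 to 0.0417. It did not pass in limma with all 12 libraries in 1 fit (adjusted p = 0.0918), without a filter (0.117), with a mean of at least 2 RPM (0.0554), with a pseudocount of 0.1 (0.0676) or without any 1 of the 6 libraries (0.0508 to 0.484).

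Markers of other cell types were summed in each library, and limma called none of them in either comparison of the genotypes. In bulk tissue, fewer cells of a type and less RNA per cell cannot be told apart. The summed level of 4 leukocyte markers was 47.4, 31.4 and 42.1 RPM in WT and 29.5, 19.5 and 13.8 in KO, without overlap. All 4 had a lower estimate, against 63.2% of all genes, and 2 were lower at an unadjusted p under 0.05, against 10.7%. The 6 macrophage markers summed to 105, 55.8 and 84.3 RPM in uninjured WT and 47.5, 36.4 and 56.6 in KO, with all 6 estimates lower and 2 at an unadjusted p under 0.05, and these groups overlapped. In injured muscle the macrophage sum was 66.5 to 101 RPM in WT and 52.6 to 66.5 in KO, so the groups nearly touched, and the leukocyte sums overlapped. Plasmacytoid dendritic cells are the main producers of type I interferon. Their 4 markers summed to 80.6 to 90.8 RPM in uninjured WT and 39.9 to 68.9 in KO. Only 1 of the markers passed the filter on low values there, with an estimate of -0.80, and 2 were at 0 in some library. The sum may thus rest largely on 1 gene and is not a measure of these cells. In injured muscle the 4 markers summed to 38.4 to 82.1 RPM in WT and 39.8 to 124.5 in KO, with KO replicate 2 the highest library. Of 4 neutrophil markers and 7 T, B and NK cell markers, 3 and 6 were at 0 in some library, and the sums were at most 6.46 and 14.4 RPM. The 8 fibre markers summed to 111220 to 122670 RPM in uninjured WT and 159760 to 170150 in KO, and overlapped in injured muscle. Endothelial markers overlapped, at 166 to 225 RPM in uninjured WT and 181 to 246 in KO. Of 4 fibro-adipogenic progenitor and fibroblast markers in uninjured muscle, 3 had a lower estimate, 2 of them at an unadjusted p under 0.05 (median -1.01), and of 4 erythroid markers 4 and 2 (median -0.76). All 3 adipocyte markers were higher at that level (median 1.60), where 3.53% of all genes were. The sums of these 3 lists overlapped between the genotypes. The 4 satellite cell markers summed to 21.8 to 29.8 RPM in uninjured WT and 30.1 to 40.3 in KO, without overlap. Of these markers 2 had a lower estimate there, and the sums overlapped in injured muscle. Of 3 smooth muscle and pericyte markers, 1 was higher at an unadjusted limma p under 0.05 in uninjured and 2 in injured muscle. Of all genes, 3.53% and 5.06% were. Of 3 Schwann cell markers, 1 was lower at that level in uninjured muscle, against 10.7% of all genes. The part of these cell types in the levels of the 9 genes was not tested.

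**Figure D5:**
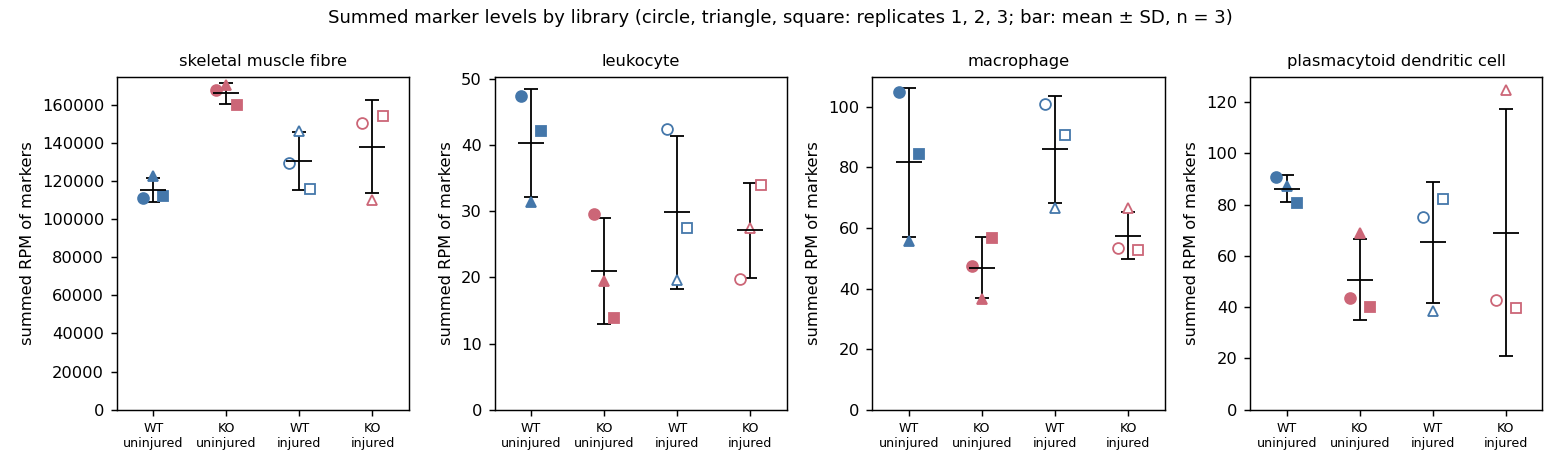
Summed RPM (vertical axis, a separate scale for each panel) of markers of muscle fibres (8 genes), leukocytes (4), macrophages (6) and plasmacytoid dendritic cells (4) in the 12 libraries by group. Symbols mark replicates 1 (circle), 2 (triangle) and 3 (square) and bars the mean ± SD (n = 3). In uninjured muscle the leukocyte sums of KO (13.8 to 29.5 RPM) lie below those of WT (31.4 to 47.4 RPM), and the fibre sums lie above. Only 1 of the 4 plasmacytoid dendritic cell markers passed the filter in uninjured muscle, so that sum may rest largely on 1 gene.

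Binding of Flag-Myf6 near the 9 genes was looked up in the deposited list of 12898 peaks. The only peak with its summit inside a member lay in Ifit2, at chr19:34553147-34553273 in the coordinates of the peak list. Its summit at 34553257 is 2169 bases downstream of the nearer annotated start of Ifit2. Whether it is exonic or intronic was not analysed here. The authors' fold enrichment for this peak was 4.42, with a -log10 q of 3.71, and 6.14% of peaks in the list have a lower fold, where the median is 7.68. The nearest summit to Stat2 was 11387 bases upstream of its start, with a fold of 6.44. Within 5000 bases of a start site, 1 of 9 members had a summit, against 7.67% of 26794 genes, within 20000 bases 2 of 9, against 22.2%, and within 100000 bases 9 of 9, against 57.4%. The median distance was 68730 bases for the members and 74709 for all genes. The other members' nearest summits were 30272 bases away for Ifit3 and 48069 to 92194 bases away for the other 6. For both Ifit3 and Ifit1 the nearest peak was the one inside Ifit2. The counts of members therefore do not stand for 9 separate peaks. The peak list comes from myotubes and 1 library, so it carries no replicate check and is not from the tissue of the RNA data.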

How the data were processed

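The authors deposited 1 table for uninjured and 1 for injured muscle, with a value per gene and library in RPM, which sums to 1000000 in each library per the file headers and values. Beside these stand the authors' own log2 fold changes, of WT over KO, and the deposited q-value and p-value of each gene. The submitters' processing notes list HISAT2 2.1.0, featureCounts, DESeq2, Bowtie 1.1.0 and MACS2 2.1.0.20140616, and the builds mm10 and GRCm38.p5, without saying which step used which; strand use and the treatment of reads with several matches are not given in the sources used here. RNA was extracted with Trizol and made into libraries with the TruSeq RNA v2 kit, per the labels. Peaks of 1 Flag-Myf6 library over 1 control were called with MACS2, per the file headers, and the deposited list gives the signal height, each peak's fold enrichment and its -log10 p and -log10 q.

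Whole reads were recovered from the RPM values, and 100% of the values tested came out whole within 0.1 read. The test was limma 3.58.1 in R 4.3.3 (lmFit, eBayes with trend) on log2(RPM + 1), for genes that reached 1 RPM in 3 or more fitted libraries, two-sided, with Benjamini-Hochberg adjustment over all genes tested and a threshold of 0.05. Changes on this scale understate those of low genes. KO and WT were compared on their own 6 libraries, and the injury comparisons and the interaction on all 12. The script was checked on simulated data. The alternatives were 3 other scalings, DESeq2 1.42.0 and edgeR 4.0.16 on the recovered reads, a replicate block, a pseudocount of 0.1, other filters, a fit on all 12 libraries, each library left out in turn, the authors' q-values, and, added after seeing the data, Ifit3 and Ifit3b summed. P-values measure only the spread between these libraries.

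The replicate numbers in the titles join different animals across genotypes. Within a genotype, the uninjured and injured libraries of a number share the animal number. Deviations from the group means correlated between libraries of 1 animal with a mean r of 0.385 in KO (0.024 to 0.628) and 0.021 in WT (-0.231 to 0.278).

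The 9 genes, the pathway and marker lists and the motifs were chosen with earlier results of these data known. Of the pathway lists, all genes called and the 2 tested genes of each list with the highest mean RPM were named. Ifnar1, Ifnar2, Irf9 and Ifit3b were named outside this rule for their place beside the 9 genes. Of the 137 listed symbols 3 were not in the tables. Coordinates, promoters and start sites are those of RefSeq, assembly GRCm38.p6, whose chromosomes share their coordinates with the earlier patch. All 9 genes matched a promoter entry. One item is not reported here.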

Additional observations from a re-analysis of the deposited data

How the results depend on the processing

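In uninjured muscle, 0 of 9 members passed in KO against WT, and likewise with upper quartile and TMM scaling, edgeR, the other filters, the pseudocount of 0.1, Ifit3 and Ifit3b summed, and each library left out. The count was 2 with scaling outside mitochondrial genes, 2 with DESeq2, 1 with all 12 libraries in 1 fit and 1 by the authors' q-values. With the replicate number as a block it was 3 (Stat2, adjusted p = 0.0143, Ifit3, 0.0154, and Bst2, 0.0433, by limma), among 752 genes called (571 lower). The pairing has no basis in the labels, as same-numbered libraries of the genotypes come from different animals. Deviations of same-numbered libraries correlated with r of 0.037 to 0.373 in uninjured and -0.603 to -0.300 in injured muscle, and in the injured comparison the replicate block called 0 members and 0 genes. The block by animal changed no call of a member in the injury comparisons. Igtp and Gbp9 also passed with the block (adjusted p = 0.0450 and 0.00695, limma). In injured muscle the count was 0 to 3 with 1 library left out, and 3 only without KO replicate 2, where Igtp passed too (adjusted p = 0.0409, limma).

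Calls over all genes moved by more than 1.5 times. From 35 in uninjured muscle they went to 156 with upper quartile scaling, 107 with TMM, 210 with scaling outside mitochondrial genes, 55 with edgeR, 611 with DESeq2, 167 with all 12 libraries, 331 by the authors' q-values, 20 with the pseudocount of 0.1, 1 without a filter and 3 to 84 with 1 library left out. From 34 in injured muscle they went to 341 with DESeq2, 225 by the authors' q-values, 56 with all 12 libraries, 19 without a filter, and 0 to 2343 with 1 library left out (2343 without KO replicate 2, 0 without any other).

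Ifit3, Stat2, Rsad2, Bst2, Irf7, Ifit1 and Ifit2 kept a negative KO against WT estimate in uninjured muscle under every alternative run. With 1 library left out, Ifit3 ran from -2.09 to -1.73 (adjusted p 0.0548 to 0.484, limma) and Stat2 from -1.78 to -1.41 (0.0612 to 0.524). Isg15 turned to 0.10 with upper quartile scaling, 0.0694 with TMM, 0.35 with DESeq2 and 0.31 with edgeR. For injury in KO, upper quartile scaling, TMM, DESeq2 and edgeR gave -0.24, -0.16, -0.29 and -0.27 for Ifit1, -0.22, -0.14, -0.20 and -0.20 for Ifit2, and -0.20, -0.11, -0.21 and -0.19 for Irf1, and the first 3 gave -0.10, -0.0048 and -0.0005 for Bst2. For injury in WT, Ifit1 was -0.014 with DESeq2. For the interaction, scaling outside mitochondrial genes gave 0.0784 for Ifit1 and 0.0204 for Irf1.

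Leaving out 1 library turned these estimates. For KO against WT in uninjured muscle, Isg15 ran from -0.55 to 0.22 and Irf1 from -0.038 to 0.51. In injured muscle, Ifit2 ran from -0.31 to 0.021, Rsad2 from -0.58 to 0.0729, Irf1 from -0.14 to 0.31 and Irf7 from -0.64 to 0.0082. For injury in WT, Ifit1 ran from -0.35 to 0.46, Isg15 from -0.0714 to 0.28, Bst2 from -0.34 to 0.24 and Irf7 from -0.55 to 0.035. For injury in KO, Ifit1 ran from -0.30 to 0.36, Ifit2 from -0.0937 to 0.24, Isg15 from -0.49 to 0.28, Bst2 from -0.10 to 0.51, Irf1 from -0.10 to 0.35 and Stat2 from -0.33 to 0.92. For the interaction, Ifit1 ran from -0.41 to 0.40, Isg15 from -0.59 to 0.18, Bst2 from -0.031 to 0.59 and Irf1 from -0.40 to 0.16. The cause was not tested. Depth limits uninjured WT replicate 2 most, where 3 reads are 1.60 RPM.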
